A study of Coturnix japonica with 24 samples.

Results

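The comparison set the livers of male Japanese quail (Coturnix japonica) on 16 hours of light a day against those on 12 hours, to find which genes differed and which agreed between the longer photoperiods. All libraries labelled 16v or 12v in the liver table were used, 8 of the 24 libraries in the series, with 4 in each group, and transcript counts were summed for each gene. The 4 liver libraries labelled 8L, from birds on 8 hours of light, entered the same fit to share the estimate of spread and to give a lower day length. Per the design note, all birds had lived on days of 16 hours of light and 8 of darkness before the treatments, and no genotype, strain, age or duration of treatment was given in the sources used here. The note counts 4 birds in each photoperiod, and the day length of 16v equals that of the earlier housing. PolyA RNA was read as PCR-amplified cDNA on a Nanopore sequencer.

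Quail are long-day breeders. Light reaching the brain sets the local activation of thyroid hormone in the hypothalamus, and through it the gonads, and body fat and food intake change with the season. In birds the liver is the main site of fatty acid synthesis, of lipoprotein export and of the plasma proteins, and it makes uric acid from purines to dispose of nitrogen.

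Sequencing depth was uneven. The liver libraries held 460596 to 867217 counts at 16v, against 72125 to 684240 at 12v, and 525035 to 696436 at 8L. A single count was worth 11.2 CPM (the count scaled to a common TMM-adjusted library size) in 12v replicate 3, against 1.14 to 2.94 CPM in the other libraries at 16v and 12v. The median SD of a gene's log2 CPM across the 4 libraries was 0.63 at 16v, 1.10 at 12v and 0.62 at 8L. The fit used 1 spread per gene for all of these groups. An SE or p that involves 12v therefore draws on the tighter 16v and 8L libraries and may be too small. The 12v libraries were far apart. On the first principal component of all genes 12v replicates 1, 2, 3 and 4 lay at 44.1, 5.38, 115 and -33.2, while the 4 libraries at 8L lay between -47.9 and -32.3. Replicate 4 of 12v thus lay among the 8L libraries on this component, and the 16v libraries lay at 53.7, -0.88, -9.96 and -3.72. In 12v replicate 4, 17 loci with near-identical counts took 14.1% of the counts, against 1.25 to 3.01% in the other 7 libraries at 16v and 12v, and 2.19 to 18.8% at 8L. On the first component of the cytosolic ribosomal protein genes, 16v replicate 1 and 12v replicates 1 and 3 lay between -9.05 and -6.78, and the other 9 libraries between -0.80 and 6.09. On the first component of all genes, the near-identical loci and SERPING1, a complement inhibitor at 147 CPM in 12v replicate 4, against 152 to 200.1 CPM at 8L and 0 in the other libraries at 12v, that library stood with 8L. For EPAS1, a hypoxia factor at 862 CPM there, against 121 to 394 CPM at 8L and 1026 to 2255 CPM in the other libraries at 12v, it was outside the 8L range, but that gene was named for a call against 8L that included the library. FABP7 and LDHA, named in the same way, averaged 99.1 ± 18.1 and 66.6 ± 10.4 CPM (SD) at 12v with this library included. Their far higher means at 8L are given below. SERPING1 was in turn named for a p between 16v and 12v that rested on this library. On the second component 12v replicate 4 lay at 4.54, against 8.05 to 34.3 at 8L and -34.6 to 66.6 in the other libraries at 12v. Among genes given below, APOB in that library lay above the 8L range and DIO2 below it. FABP7 and AHSG in that library lay well below their 8L means. No count over all genes was made. These values went both ways. The label of 12v replicate 4 is in doubt on them, and whether it was mislabelled was not tested. The label was kept, so every 12v mean and contrast includes this library unless it is said to be left out. For named genes with a log2 difference of at least 0.5, a limit set after the values were seen, the value is also given without 16v replicate 1 or 12v replicate 1, 3 or 4 wherever leaving that library out moved it by over 1.5 times. This rule did not cover the other libraries, so a gene given without such a value can still move by that much without another library. The hepatocyte markers, 9 of 10 of them in the table, summed to 82674 to 115497 CPM at 16v, against 87021 to 142184 CPM at 12v. The highest of these sums was that of 12v replicate 4, within the 8L range of 122666 to 161665 CPM. The other libraries at 12v summed to 87021 to 113064 CPM. The summed markers of every cell type examined overlapped between 16v and 12v, and the adipocyte markers summed to 11.3 to 137 CPM at 16v, against 11.2 to 213 CPM at 12v. CSF3R, a heterophil marker, and PRSS2, a pancreas marker, were at 0 in all 8 libraries.

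**Figure D1:**
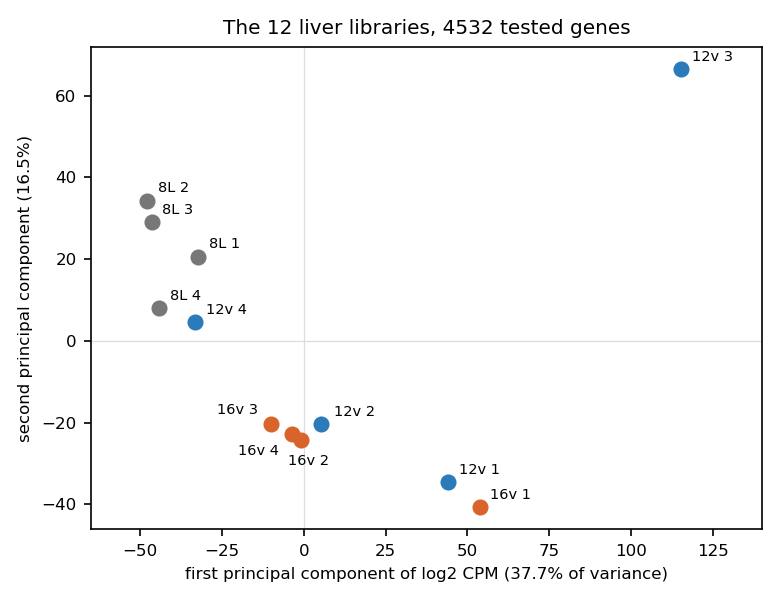
The 12 liver libraries on the first and second principal components of log2 CPM over 4532 genes, 1 point per library (orange 16v, blue 12v, grey 8L). The first component separates 12v replicate 3 at 115 from the rest, and 12v replicate 4 at -33.2 sits beside the 8L libraries.

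Of 14983 genes in the table, 4532 had enough counts to test. At an edgeR adjusted p under 0.05 a single gene differed between 16v and 12v, BIN1, which was higher at 16v and made up 0.0221% of the genes tested. At an unadjusted edgeR p under 0.05 there were 90 genes, 1.99% of those tested, with 54 higher and 36 lower at 16v. With no true difference, such a p is expected for a share of 0.05 of the genes, which is above the share found. The 4 libraries at 16v all lay above the 4 at 12v for 78 genes (1.72%), and all below for 22 genes (0.485%). Groups of 4 can also separate by order alone, so separate groups do not by themselves show a difference, here or below. The median log2 difference over all tested genes was 0.05, and 2416 genes (53.3%) had a difference above 0. By comparison 15 genes (0.331%) passed the threshold between 12v and 8L, and 36 (0.794%) between 16v and 8L. These contrasts share the 8L libraries and moved with single libraries: without 12v replicate 4 they held 292 and 210 calls, without 12v replicate 1 they held 0 and 92, and without 8L replicate 2 they held 2 and 0. Without each of the other libraries they held 0 to 20 and 0 to 73. In bulk liver, fewer cells of a type and less RNA per cell cannot be told apart, here or in any value that follows.

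**Figure D2:**
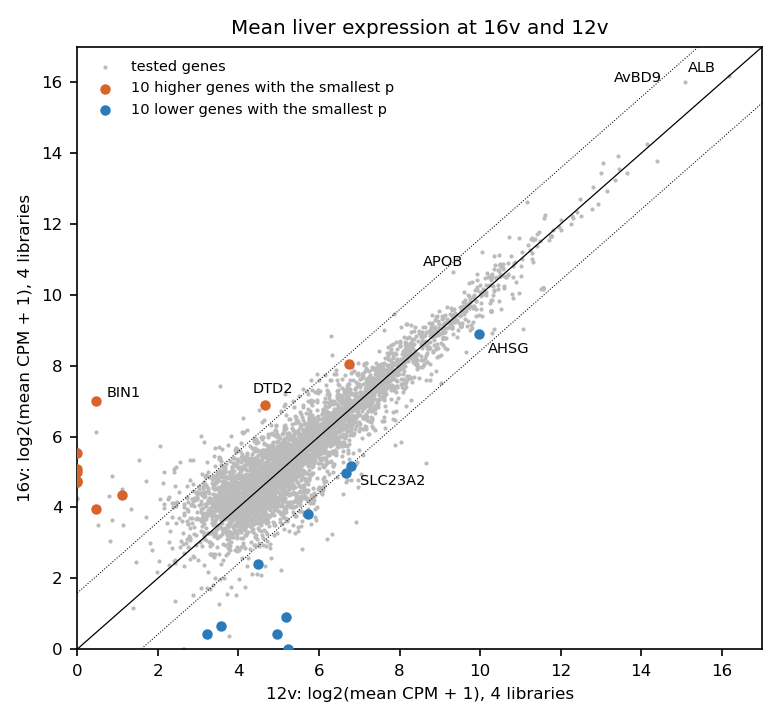
Mean expression of the 4532 tested genes, as log2(mean CPM + 1) at 16v (vertical axis) and at 12v (horizontal axis), 4 libraries each. The solid line marks equal means and the dotted lines a 3-fold difference, orange and blue points mark the 10 genes of smallest p on the higher and on the lower side, and BIN1 stands apart at the left.

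BIN1, a BAR-domain protein that bends membranes during endocytosis, was the gene called, with more counts at 16v than at 12v. It had 88.2, 178, 194 and 48 CPM in 16v replicates 1 to 4, against 0, 1.5, 0 and 0 CPM in 12v replicates 1 to 4. All 16v libraries lay above all 12v libraries, and 3 of the 12v libraries held no count. The means were 127 ± 70.2 CPM at 16v and 0.375 ± 0.751 CPM at 12v (SD, n = 4 each, as for all means here), and the edgeR log2 difference was 7.30 ± 0.96 (SE, as for all log2 differences here), with an adjusted p of 0.0198. The 8L libraries, with 141 ± 105 CPM, were at the level of the 16v ones, so that 12v was the low group of the 3. This value rests on few reads. The table lists 40 transcripts of BIN1, and a read that fits many of them seems to be counted on each. How such reads were assigned is not stated in the sources used here. Beside the sums of 39, 156, 144 and 40 counts at 16v, the largest transcript in each library had 1, 4, 4 and 1 counts, against 0, 1, 0 and 0 at 12v. The largest transcript was taken in each library apart and can differ between libraries, here and in the read counts of genes below. Summed over the group these largest counts came to 10 at 16v and 1 at 12v, a ratio of 5.76 (95% interval 0.819 to 250), which includes 1. The interval is exact and reflects counting alone, because amplified reads with no molecular tag may be copies of 1 molecule. With 1 transcript per gene BIN1 had too few counts to be tested and 0 of 2601 genes were called by edgeR, with 53 at an unadjusted p under 0.05. The call was also lost without any 1 of the 4 libraries at 12v, and without 16v replicate 2 or 3 (edgeR adjusted p 0.0641 to 0.318). When the 8L libraries did not share in the spread, with 16v and 12v fitted alone, the edgeR adjusted p was 0.0654. limma-voom called 0 genes, with 123 at an unadjusted p under 0.05. DESeq2 called 3, BIN1, FRYL (adjusted p 0.0151) and SLC23A2.

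Other genes with the smallest p on the higher side were also rare, and did not pass edgeR's threshold, each with an adjusted p of 0.999. FRYL had 56.5, 59.3, 35 and 31.2 CPM at 16v, against 0 in every 12v library. Its largest transcript held 10 counts at 16v and 0 at 12v, a ratio of 1.92 when 3 counts over the group stand for 0. This ratio takes the 16v count as exact, so it is not a 95% limit. No interval was computed for genes at 0 in a group. By the same rule UBLCP1, a phosphatase of the proteasome, and WDR17 had a ratio of 3.07 on 16 counts at 16v and 0 at 12v each. TMTC3, an O-mannosyltransferase of the endoplasmic reticulum, had 14 counts at 16v and 0 at 12v (a ratio of 2.69). TTLL7, a tubulin-modifying enzyme, had 7 at 16v and 0 at 12v (a ratio of 1.34). SLC25A51, which carries NAD+ into mitochondria, had 14.5 ± 9.69 CPM at 16v and 0.375 ± 0.751 CPM at 12v, from 10 counts at 16v and 1 at 12v. GPBP1, a promoter-binding protein, had 19.5 ± 9.71 CPM at 16v and 1.17 ± 1.44 CPM at 12v, from 9 counts at 16v and 2 at 12v. The ratio of those counts was 5.76 (95% interval 0.819 to 250) for SLC25A51 and 2.59 (95% interval 0.536 to 24.6) for GPBP1, and both intervals include 1.

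DTD2 and PPM1B rested on more reads. DTD2, a tRNA deacylase, had 86, 124, 108 and 149 CPM at 16v, against 29.4, 33, 0 and 35 CPM at 12v. Every 16v library was above every 12v library, and 12v replicate 3, the shallowest, held none. The log2 difference was 2.09 ± 0.64 (unadjusted edgeR p 0.00619), and it was 1.96 when 1 transcript stood for the gene. PPM1B, a protein phosphatase, had 475, 238, 180.3 and 152 CPM at 16v, against 76.5, 134, 100.5 and 114 CPM at 12v. Its groups did not overlap, with 16v replicate 1 the highest, and the log2 difference was 1.29 ± 0.44 (unadjusted edgeR p 0.012), or 0.85 without that library. Both genes had an edgeR adjusted p of 0.999.

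On the lower side SLC23A2, a sodium-dependent transporter of vitamin C, had the smallest p. It had 27.1, 35.3, 41.7 and 36 CPM at 16v, against 109, 94.6, 145 and 94.4 CPM at 12v. The groups were separate and had means of 35 ± 6 CPM at 16v and 111 ± 23.9 CPM at 12v (SD, n = 4 each). The 8L libraries, at 115, 83.1, 66.7 and 80.9 CPM, also lay above all 16v libraries and overlapped with 12v. The log2 difference was -1.63 ± 0.35, with an unadjusted edgeR p of 0.00045, an edgeR adjusted p of 0.999 and a DESeq2 adjusted p of 0.00126. It ran from -1.71 to -1.47 when 16v replicate 3, 12v replicate 3 or 12v replicate 4 was left out, and was -1.33 without 16v replicate 1 and 12v replicates 1 and 3. COA7, an assembly factor of the mitochondrial respiratory chain, had 22.6, 38.7, 29.6 and 31.2 CPM at 16v, against 58.8, 49.6, 167 and 128 CPM at 12v. No 16v library reached the lowest 12v library, and the log2 difference was -1.66 ± 0.48 (unadjusted edgeR p 0.00402). CHST13, a chondroitin sulfotransferase, had 13 ± 9.79 CPM at 16v and 52.2 ± 33.8 CPM at 12v, with overlapping groups, and a log2 difference of -1.94 ± 0.60.

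CIDEC and AHSG had their highest levels at 8L and their lowest at 16v. CIDEC, which fuses lipid droplets, had 2.26, 2.28, 5.38 and 7.2 CPM at 16v, against 5.88, 24, 0 and 56 CPM at 12v, and 114 ± 55.2 CPM at 8L (SD, n = 4). The 12v libraries spread from 0 to the highest in replicate 4, and the log2 difference of -2.42 ± 0.79 became -1.47 without that library. In 12v replicate 3 a single count was worth 11.2 CPM, so its 0 for CIDEC cannot be told apart from the 16v values. AHSG, the plasma protein fetuin-A, had 351, 431, 468 and 660.1 CPM at 16v, against 882, 979, 1619 and 561 CPM at 12v, and 2205 ± 801 CPM at 8L. One 12v library, replicate 4, lay within the 16v range, and the log2 difference was -1.07 ± 0.39. Against 8L, both were called at 16v (edgeR adjusted p 0.0241 for CIDEC and 0.0257 for AHSG) and neither at 12v (edgeR adjusted p 0.164 and 0.179). The direct test of 16v against 12v did not pass the threshold for either gene.

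Further genes on the lower side had most of their 12v counts in 12v replicate 4. SERPING1, the plasma inhibitor of complement C1, had 147 CPM in 12v replicate 4 and 0 in the other 7 libraries at 16v and 12v, while the 8L libraries held 186, 152, 200.1 and 176 CPM. That library stood at the level of 8L and the other 7 held no count. RAMP2, a partner of peptide hormone receptors, had 33.2 CPM there, against 0 to 1.35 CPM in the other 7. OGDH, a subunit of the citric acid cycle's oxoglutarate dehydrogenase, had 42.0 CPM there, against 0 to 1.5 CPM in the other 7. Without 12v replicate 4 the log2 difference was 1.34 in place of -4.14 for RAMP2 and -0.24 in place of -3.85 for OGDH, and SERPING1 had no counts left in either group. VTN, the plasma adhesion protein vitronectin, had 407, 326, 681 and 514 CPM at 16v, against 606, 643, 234 and 3585 CPM at 12v, and its difference of -1.40 ± 0.66 was -0.03 without that library. Of the other 2 lower genes, ABCD4, of lysosomal cobalamin transport, had 1 count at 16v and 7 at 12v on its largest transcript, and MAST4, a protein kinase, had 2 at 16v and 4 at 12v.

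**Figure D3:**
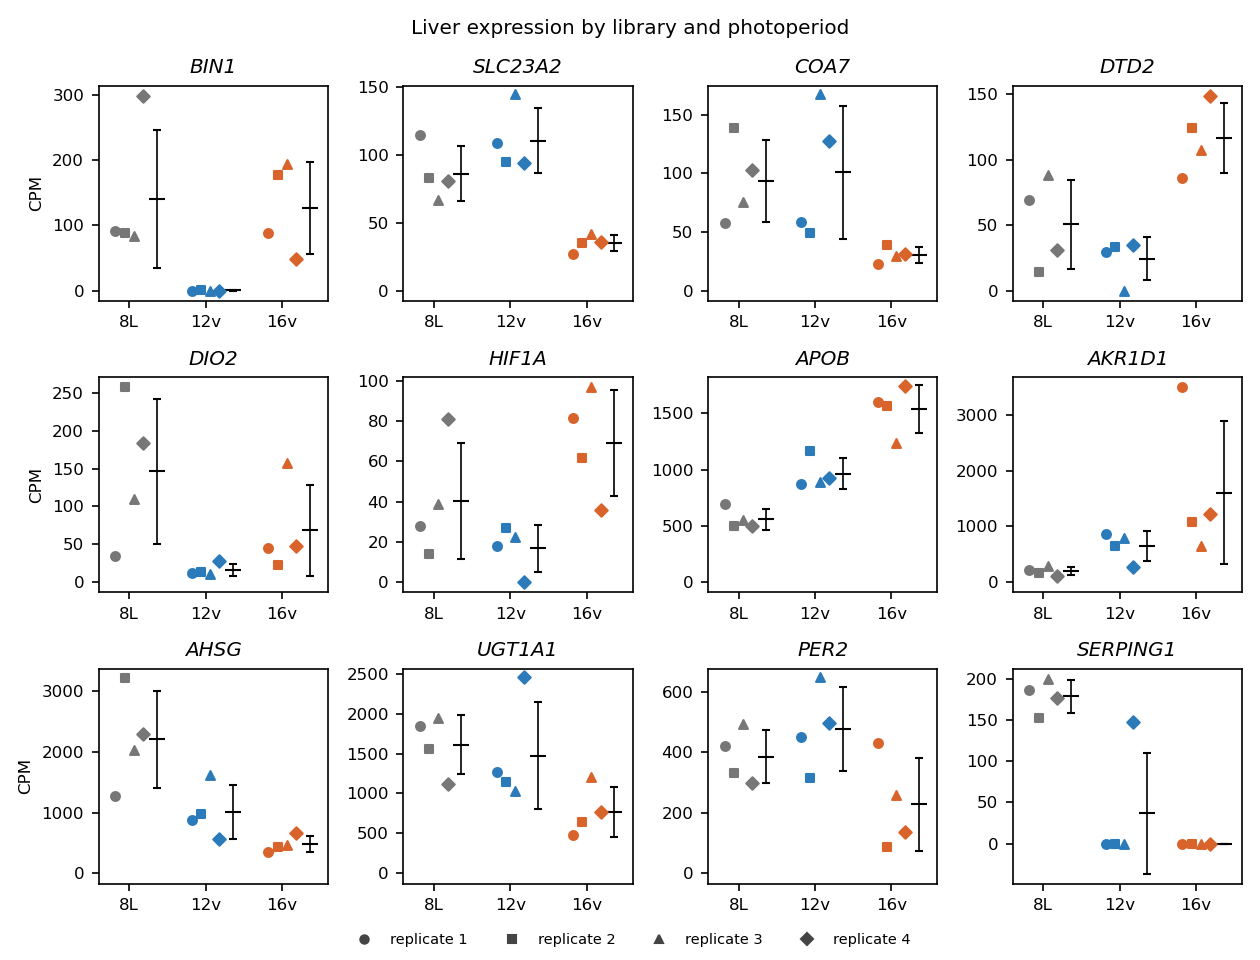
CPM of 12 genes in each liver library by photoperiod, in the order 8L, 12v and 16v, with the replicate number as the marker shape and the mean and SD (n = 4) in black at the right of each group. BIN1 is low at 12v alone, SLC23A2 and COA7 are low at 16v, APOB is lowest at 8L and highest at 16v, and SERPING1 is at 0 in the longer photoperiods except in 12v replicate 4.

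No lipid export or bile acid gene passed the edgeR threshold. APOB, the structural protein of secreted lipoproteins, had 1604, 1567, 1234 and 1747 CPM at 16v, against 871, 1167, 893 and 925 CPM at 12v. The groups did not overlap, and the 8L libraries, at 695, 498, 551 and 496 CPM, lay below both. Its log2 difference was 0.67 ± 0.26 with an unadjusted edgeR p of 0.023 on 4457 counts at 16v and 1682 at 12v. Of 10 lipoprotein genes tested, 7 had a difference above 0, with a median of 0.29, beside 53.3% and 0.05 over all tested genes. AKR1D1, which reduces bile acid intermediates, had 3506, 1069, 639 and 1216 CPM at 16v, against 865, 643, 793 and 269 CPM at 12v. The groups overlapped and 16v replicate 1 was far above the others, with a log2 difference of 1.33 ± 0.54 (unadjusted edgeR p 0.0291), or 0.64 without that library. ACOX2, which shortens the bile acid side chain in peroxisomes, had 353 ± 42.7 CPM at 16v and 219 ± 89.2 CPM at 12v (SD, n = 4 each), without overlap, and BAAT, which joins bile acids to amino acids, 4.93 ± 3.55 CPM at 16v and 17.8 ± 16.9 CPM at 12v. Of 9 bile acid genes 7 had a difference above 0, with a median of 0.11.

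No gene that builds fatty acids or triglycerides passed the threshold. Of 10 desaturases and elongases, 9 had a difference above 0 (median 0.25), as did 6 of 8 genes of triglyceride assembly (median 0.53). Over all tested genes the share was 53.3% and the median 0.05. FADS2, the delta-6 desaturase, had 18.4 ± 7.7 CPM at 16v and 6.42 ± 5.89 CPM at 12v, and ELOVL5, an elongase of polyunsaturated fatty acids, 548 ± 262 CPM at 16v and 334 ± 132 CPM at 12v. AGPAT2, an acyltransferase, had 70.3 ± 19.7 CPM at 16v and 34 ± 23.9 CPM at 12v, and LPIN2, a phosphatidate phosphatase, 497 ± 185 CPM at 16v and 313 ± 153 CPM at 12v. Groups overlapped for each of these 4 genes. In fatty acid synthesis itself 3 of 10 genes had a difference above 0 (median -0.12). ME1, the malic enzyme that supplies NADPH, had 1208, 533, 87.5 and 486 CPM at 16v, against 212, 553, 234 and 169.7 CPM at 12v, with the wider spread at 16v. Of 10 fatty acid binding and uptake genes, 6 had a difference above 0 (median 0.12), and FABP1, the liver fatty acid binding protein, had 656, 955, 1797 and 768 CPM at 16v, against 1806, 1834, 1753 and 1641 CPM at 12v. Its 12v libraries were close together and 16v replicate 3 reached them, with a log2 difference of -0.75 ± 0.37. In the droplet and lipolysis list 3 of 7 genes had a difference above 0 (median -0.47), with CIDEC the lowest.

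The enzymes of sterol, sugar and amino acid metabolism gave mixed signs. HSD17B7, a sterol reductase of cholesterol synthesis, had 40.4 ± 14.9 CPM at 16v and 14.7 ± 10.7 CPM at 12v (log2 difference 1.27 ± 0.57), FDFT1, squalene synthase, 30.6 ± 11.4 CPM at 16v and 56.3 ± 27.8 CPM at 12v, and MSMO1, a sterol oxidase, 249 ± 54.3 CPM at 16v and 182 ± 26.8 CPM at 12v. Of 14 cholesterol synthesis genes, 8 had a difference above 0 (median 0.02). TKFC, which phosphorylates fructose-derived glyceraldehyde, had 40.7, 41, 64.6 and 46.8 CPM at 16v, against 17.6, 31.5, 11.2 and 35 CPM at 12v, with no overlap and a log2 difference of 0.91 ± 0.44. FBP2, a fructose bisphosphatase, had 23.5 ± 11.7 CPM at 16v and 8.17 ± 8.6 CPM at 12v. LDHB, the heart-type lactate dehydrogenase, had 416, 745, 1811 and 890.5 CPM at 16v, against 2470.3, 1063, 1853 and 1878 CPM at 12v, and 16v replicate 3 was the one library that reached the 12v range. PHGDH, the first enzyme of serine synthesis, had 272 ± 103 CPM at 16v and 144 ± 62 CPM at 12v (log2 difference 0.89 ± 0.42), and AMT, of glycine cleavage, 2.97 ± 2.07 CPM at 16v and 10.6 ± 10.5 CPM at 12v. GFPT1, the first enzyme of hexosamine synthesis, had 13.6, 11.4, 16.1 and 16.8 CPM at 16v, against 5.88, 6.01, 0 and 10.5 CPM at 12v, low in all libraries and not overlapping. In 12v replicate 3 a single count was worth 11.2 CPM. The TKFC value in that library was thus a single count, and its 0 for GFPT1 cannot be told apart from the 16v values. ACAA2, a thiolase of mitochondrial fatty acid oxidation, had 208 ± 47.5 CPM at 16v and 137 ± 38.2 CPM at 12v, in a list where 9 of 21 genes had a difference above 0.

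No detoxifying enzyme passed the threshold either. Of 20 cytochrome P450 and conjugation genes, 14 had a difference below 0, with a median of -0.24. Over all tested genes 53.3% had a difference above 0, with a median of 0.05. UGT1A1, which conjugates bilirubin and hormones with glucuronic acid, had 475, 647, 1206 and 764 CPM at 16v, against 1273, 1139.9, 1027 and 2461 CPM at 12v. A single 16v library, replicate 3, reached the 12v range, and the log2 difference was -0.93 ± 0.38 (unadjusted edgeR p 0.0305), or -0.53 without 12v replicate 4. EPHX2, an epoxide hydrolase, had 6.7 ± 4.84 CPM at 16v and 16.3 ± 15.8 CPM at 12v, with overlapping groups.

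No gene of the thyroid, hypoxia or clock lists passed the threshold. An unadjusted edgeR p under 0.05 was found for 1 of 8 thyroid genes, 1 of 8 hypoxia genes and 1 of 6 clock genes tested, beside 1.99% of all tested genes. DIO2, the deiodinase that activates thyroid hormone, had 45.2, 22.8, 157 and 48 CPM at 16v, against 11.8, 13.5, 11.2 and 28 CPM at 12v. The groups overlapped at 16v replicate 2 and 12v replicate 4, 16v replicate 3 was the highest, and the 8L libraries held 34.5, 258, 109.8 and 184 CPM. The log2 difference was 1.99 ± 0.73 (unadjusted edgeR p 0.0177) and 1.18 without 16v replicate 3. Of the other thyroid genes TTR, a plasma carrier of the hormone, had 14116 ± 8713 CPM at 16v and 21403 ± 9344 CPM at 12v, and KLF9, a hormone-responsive transcription factor, 17.6 ± 5.7 CPM at 16v and 9.1 ± 7.96 CPM at 12v. HIF1A, the oxygen-regulated transcription factor, had 81.4, 61.5, 96.9 and 36 CPM at 16v, against 17.6, 27, 22.3 and 0 CPM at 12v. Its groups did not overlap, on 32 counts at 16v and 5 at 12v, with a log2 difference of 2.09 ± 0.85 (unadjusted edgeR p 0.0286). In 12v replicate 3 a single count was worth 11.2 CPM, so the DIO2 value there was a single count. The HIF1A value in that library also rested on few counts. PER2, a repressor in the circadian clock, had 429.8, 86.6, 258 and 137 CPM at 16v, against 449.96, 314, 648 and 497 CPM at 12v. 16v replicates 2, 3 and 4 lay below every 12v library and replicate 1 lay among them, with a log2 difference of -1.06 ± 0.45 (unadjusted edgeR p 0.0356). CRY1, a partner repressor, had 30 ± 3.66 CPM at 16v and 19.1 ± 7.95 CPM at 12v, and NR1D2, a clock-linked nuclear receptor, 16.6 ± 7.91 CPM at 16v and 29.6 ± 25.4 CPM at 12v. The hour at which tissue was taken is not given in the sources used here. PPARD, a fatty acid receptor, rested on 3 counts at 16v and 1 at 12v, and PROX1, a liver transcription factor, had 47.8 ± 14.3 CPM at 16v and 83.6 ± 22.5 CPM at 12v.

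SAA, ORM1 and MBL2 were high in a single 16v library. Each was named for its p in a list of its own. The antimicrobial and acute-phase list had 4 of 7 genes above 0 (median 0.14), plasma proteins and clotting 13 of 27 (median -0.01) and complement 6 of 18 (median -0.17), and 0 of them passed the threshold. In 16v replicate 3, SAA, serum amyloid A, had 1132 CPM, against 10.3 to 72.0 CPM in the other 3 libraries at 16v and 13.5 to 159 CPM at 12v. ORM1, the acid glycoprotein, had 1598 CPM in that library, against 13.6 to 216 CPM in the other 3 and 6.01 to 203 CPM at 12v, and MBL2, a mannose-binding lectin of complement, had 182 CPM, against 0 to 26.4 CPM in the other 3 and 0 to 9.01 CPM at 12v. Without this library the log2 difference between 16v and 12v was -0.89 in place of 2.04 for SAA, 0.07 in place of 2.53 for ORM1 and 1.14 in place of 3.58 for MBL2. AvBD9, an antimicrobial defensin and among the most abundant liver transcripts, had 86938, 69374, 29749 and 79732 CPM at 16v, against 20889, 71219.8, 15529 and 31763 CPM at 12v. Its groups overlapped, with a log2 difference of 0.93 ± 0.51.

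Among the large housekeeping lists the medians lay near 0. Of 70 cytosolic ribosomal protein genes 39 had a difference below 0 (median -0.04), and of 54 respiratory chain genes 34 did (median -0.10). All 6 annexin and S100 genes had a difference above 0 (median 0.35), from 0.19 to 1.31, with S100A6, a calcium-binding protein, the highest at 34 ± 26.7 CPM at 16v and 13.3 ± 7.66 CPM at 12v. Of 29 translation factors 17 had a difference above 0 (median 0.02). EIF5A, an elongation factor, had 138 ± 21.6 CPM at 16v and 85.9 ± 28.8 CPM at 12v. In the endoplasmic reticulum 12 of 17 chaperone genes had a difference above 0 (median 0.21), with PDIA4, a disulfide isomerase, at 242 ± 62.7 CPM at 16v and 171 ± 78.9 CPM at 12v, and CALR, calreticulin, at 2.99 ± 1.44 CPM at 16v and 11.5 ± 12.8 CPM at 12v. Of the yolk precursor genes 0 had enough counts to test, in these males.

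Several differences among the listed genes moved by over 1.5 times without 1 library. Leaving out 12v replicate 4 brought BAAT to -1.21 in place of -1.88, EPHX2 to -0.74 in place of -1.40, CALR to -1.12 in place of -2.10, AMT to -1.22 in place of -1.93 and ACOX2 to 0.44 in place of 0.69. It took LPIN2 to 1.00 in place of 0.65, FBP2 to 2.00 in place of 1.28, ORM1 to 3.91 in place of 2.53, PPARD to 5.58 in place of 3.72 and PLIN2 to 1.00 in place of 0.63. The first 5 genes were thus closer to 0 without that library and the other 5 farther from it. For PPARD that library held the only 12v count, so its 5.58 has no 12v count behind it. Without 16v replicate 1 the difference was 0.36 in place of 0.97 for ME1, 0.42 in place of 0.71 for ELOVL5, 0.72 in place of 1.31 for S100A6 and -1.09 in place of -0.60 for TTR. Without 12v replicate 1 it was -0.28 for TTR, -0.49 in place of -0.83 for FDFT1 and 1.20 in place of 0.77 for KLF9. Without 12v replicate 3 it was -0.04 in place of -0.66 for NR1D2 and 0.83 in place of 0.53 for PDIA4. None of these values turned in sign. Libraries outside the rule also moved some genes. With any 1 liver library left out, LEAP2 (-0.97) ran from -1.25 to -0.44 and AvBD9 (0.93) from 0.70 to 1.57. LDHB (-0.91) ran from -1.39 to -0.64 and FABP1 (-0.75) from -1.13 to -0.56.

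**Figure D4:**
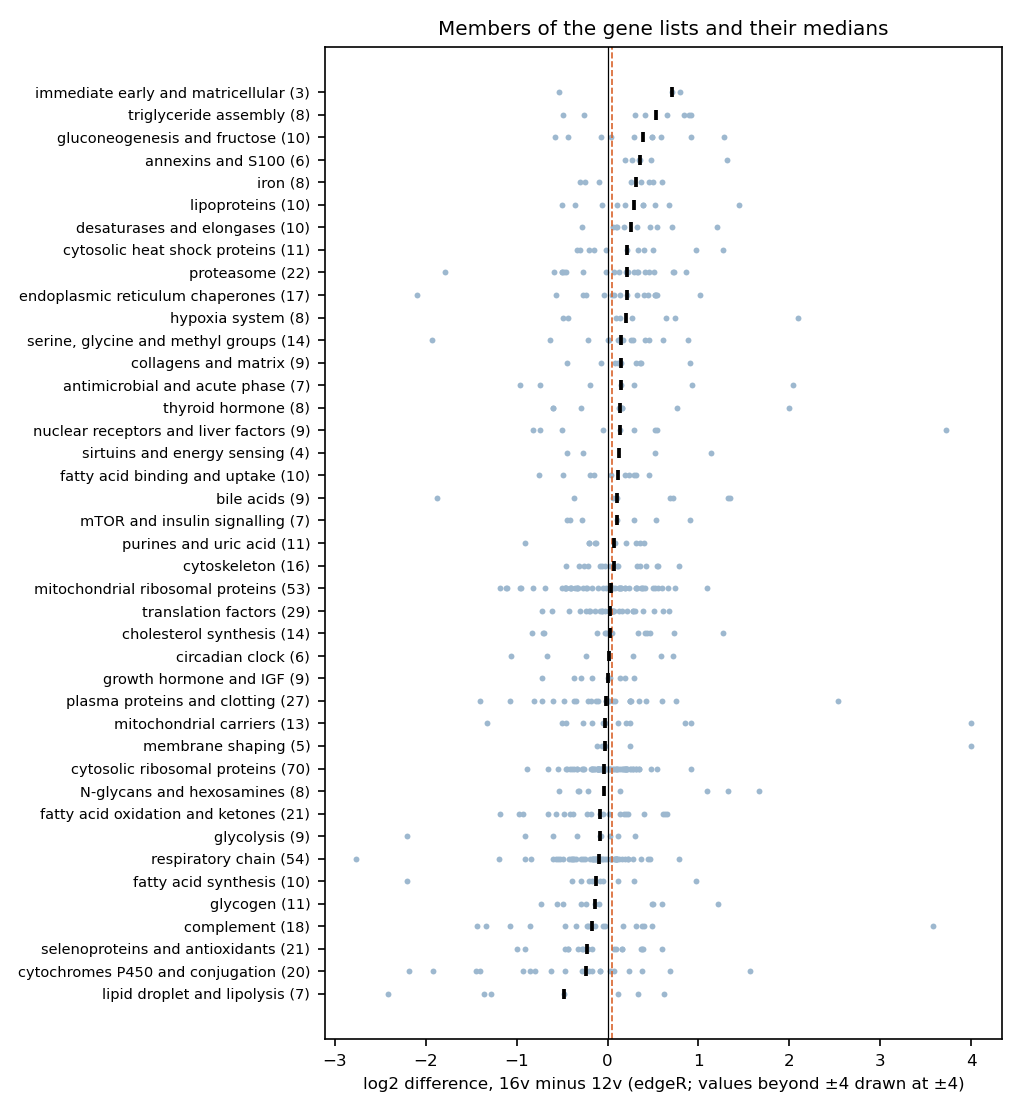
The log2 difference, 16v minus 12v, of each tested gene in the gene lists (blue points), with the median of each list (black tick), the number tested in brackets, zero as a solid line and the median of all tested genes, 0.05, as a dashed line. Medians run from -0.47 for lipid droplet genes to 0.71 for the 3 immediate early and matricellular genes, and members of most lists lie on both sides of zero.

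Agreement was tested apart from the lack of a difference. A gene was counted as agreeing when limma-voom placed the difference inside a margin at an adjusted p under 0.05 by a pair of one-sided tests. With a 2-fold margin 0 of 4532 genes passed, and with a 3-fold margin 1787 genes (39.4%) did. The 95% interval of the difference lay within 2-fold for 464 genes (10.2%). The 3-fold count fell to 561 without 12v replicate 2, and to between 881 and 990 without 12v replicate 1 or 4 or 16v replicate 2, 3 or 4, and the interval count to 201 without 12v replicate 2 and to between 249 and 286 without the same others. More of the abundant genes passed this test. Split by mean CPM into 4 classes of 1133 genes, 148 (13.1%) of the lowest class agreed within 3-fold, then 353 (31.2%), 513 (45.3%) and, in the highest class, 773 (68.2%). The median width of the 95% interval fell over the same classes, from 3.67 to 2.77, 2.43 and 1.91 log2 units. Precision thus rose along with the share that passed, and whether abundant genes are more alike was not tested.

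Several abundant transcripts were picked after their values were seen because their 95% interval lay within 2-fold, so that the interval describes the choice. Other abundant transcripts were outside that limit, among them AvBD9 (0.08 to 2.07), TTR (-1.58 to 0.25) and FTH1, the ferritin heavy chain (-0.94 to 2.12). ALB, serum albumin, had 47460.3, 72672, 84449 and 91187 CPM at 16v, against 46431, 90101, 58611 and 103958 CPM at 12v. The groups overlapped over most of their range, with an edgeR log2 difference of -0.02 (limma-voom 95% interval -0.70 to 0.73). PAICS and GART, enzymes of the purine synthesis that feeds uric acid, differed by -0.20 (-0.88 to 0.57) and -0.14 (-0.79 to 0.43). For these genes and those below, the difference is edgeR's and the interval is limma-voom's. The interval is centred on limma-voom's own estimate, -0.16 for PAICS and -0.18 for GART. PSPH, the last enzyme of serine synthesis, differed by 0.11 (-0.74 to 0.90). EEF1A1, a translation elongation factor, differed by 0.02 (-0.61 to 0.66), HNRNPH1, a splicing factor, by 0.03 (-0.58 to 0.59), and RPS14, a ribosomal protein, by -0.15 (-0.75 to 0.50). By list, 10 of 11 purine genes, 25 of 29 translation factors, 60 of 70 cytosolic ribosomal protein genes, 42 of 54 respiratory chain genes, 1 of 7 antimicrobial and acute-phase genes and 2 of 8 thyroid genes agreed within 3-fold. Over all tested genes the share was 39.4%, and in the highest class of expression it was 68.2%. The lists were not matched for expression, and whether any differs from genes of its own level was not tested.

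Genes that stood apart from 8L at the longer photoperiods were placed beside each other at 16v and 12v. FABP7, a fatty acid binding protein, had 97.3, 171, 124 and 70.8 CPM at 16v, against 76.5, 116, 112 and 92.7 CPM at 12v, while 8L held 738 ± 279 CPM (SD, n = 4). The groups overlapped, and the log2 values against 8L were -2.67 at 16v and -2.90 at 12v, both called by edgeR. EPAS1, the hypoxia-inducible factor 2-alpha, had 1459.8 ± 129.6 CPM at 16v and 1336 ± 628 CPM at 12v, against 255 ± 111 CPM at 8L. The 16v and 12v libraries all exceeded those at 8L, and 16v differed from 12v by 0.13 (-0.54 to 1.04). SELENOP1, a selenium carrier of plasma, had 1152 ± 174 CPM at 16v and 1388 ± 311 CPM at 12v, and CCDC152, which overlaps the selenoprotein P gene in humans so that reads of the pair may not be told apart, 1442 ± 298 CPM at 16v and 1807 ± 611 CPM at 12v. SIRT4, a mitochondrial sirtuin, had 379.9 ± 188 CPM at 16v and 459.7 ± 148 CPM at 12v, against 57.3 ± 37 CPM at 8L. LDHA, the muscle-type lactate dehydrogenase, had 82.9 ± 38.4 CPM at 16v and 66.6 ± 10.4 CPM at 12v, against 944 ± 685 CPM at 8L. For LDHA the interval of the difference between 16v and 12v was wide, -1.47 to 1.73, and it includes a 2-fold difference either way.

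Other genes of this kind gave further values. TEX14, described as a germ-cell protein in mice, had 1856 ± 226 CPM at 16v and 1432 ± 339.8 CPM at 12v, and PLIN2, a lipid droplet coat protein, 119 ± 41.5 CPM at 16v and 76.4 ± 31.3 CPM at 12v. PHKG1, a subunit of phosphorylase kinase, had 27.5 ± 12.2 CPM at 16v and 46.1 ± 9.21 CPM at 12v, LEAP2, a hepatic peptide that blocks the ghrelin receptor in mice, 44.3 ± 19.5 CPM at 16v and 82.8 ± 66.4 CPM at 12v, and PEMT, which makes phosphatidylcholine, 26.3 ± 9.03 CPM at 16v and 37.3 ± 34 CPM at 12v. The log2 differences of these 3 were -0.73, -0.97 and -0.63, and PEMT's was 0.025 without 12v replicate 4. SCUBE1, a secreted protein, had 34.3 ± 15.4 CPM at 16v and 36.8 ± 35.7 CPM at 12v. In none of the 13 genes plotted but BIN1 did the 95% interval between 16v and 12v leave out 0. BIN1 had the smallest p in this contrast, so its unadjusted interval follows from that choice. Its limma-voom adjusted p was 0.999.

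**Figure D5:**
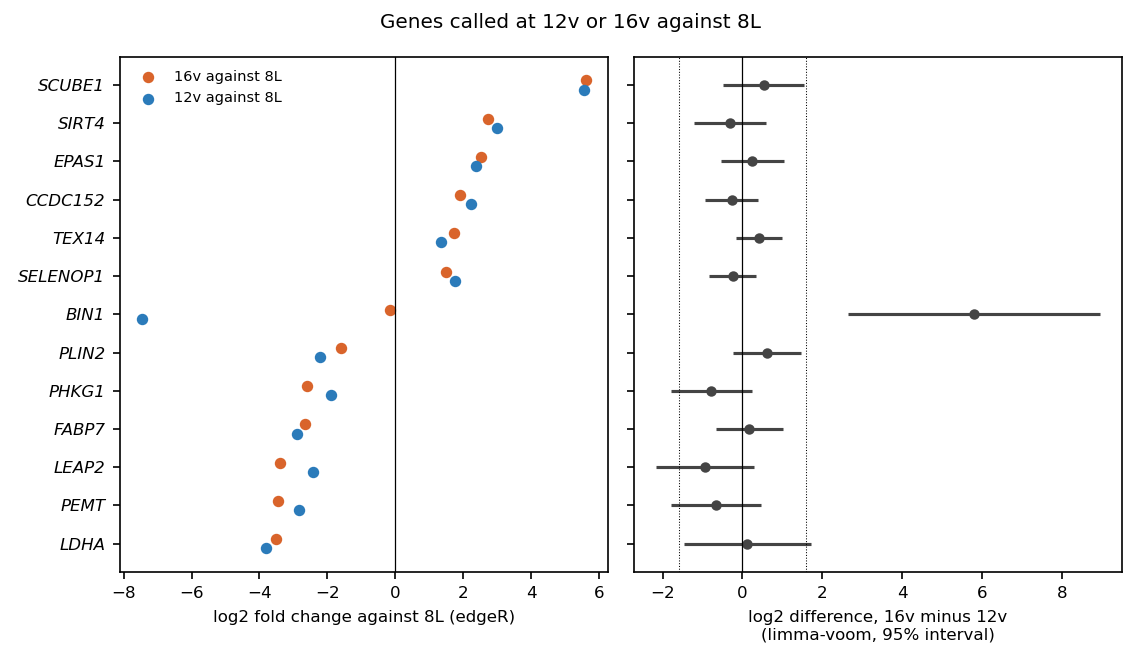
Left, edgeR log2 fold changes against 8L at 16v (orange) and 12v (blue) for 13 genes called in either contrast, which share the 8L libraries; on the right, the limma-voom log2 difference 16v minus 12v with its 95% interval, and a 3-fold difference as dotted lines. The intervals of 12 genes include 0. That of BIN1 does not, but BIN1 had the smallest p in this contrast and rests on few reads.

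A test of whether the step between 12v and 16v differed from the step between 8L and 12v called 1 gene of 4532 (0.0221%) by edgeR, BIN1, with a log2 value of 14.75 and with the few reads given above. At an unadjusted edgeR p under 0.05 there were 322 genes, and limma-voom called 0 and DESeq2 14. FABP7, CCDC152 and GPBP1 were among the next genes by p and did not pass. Without 12v replicate 1, 2 or 3, 0 genes were called. Without 12v replicate 4, 23 features were called, BIN1 and CCDC152 among them, and 18 of them were loci without a symbol that shared a single value.

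Whether the difference between 16v and 12v was another one in abdominal white adipose tissue was tested over all 24 libraries and 7107 genes, and 0 genes passed (0%), with 388 at an unadjusted edgeR p under 0.05. Without 12v replicate 4 there were 2. The tissues share birds as far as the sample descriptions show, since 11 numbers occur in both tissues and 2 in only 1, those of 16v replicate 4. With those numbers as a block, an alternative chosen after seeing the data, 0 genes passed in edgeR, with 232 at an unadjusted p under 0.05. In the fit without the block the smallest adjusted p was 0.152, which CADM1, a cell adhesion molecule, had. On the scale of that fit CADM1 averaged 307 ± 21.4 CPM at 16v and 258 ± 86.7 CPM at 12v in liver, and 57.1 ± 60.3 CPM at 16v and 0 at 12v in adipose tissue (SD, n = 4 each). IGBP1, EPS15L1 and FRYL were also among the 5 smallest by p, each at 0 in the 12v livers.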

How the data were processed

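Liver polyA RNA of male quail was sequenced as Nanopore PCR-cDNA, and per the labels the 16v, 12v and 8L groups hold 4 libraries each. The authors deposited expected counts (estimated reads per transcript) with no normalization, and 99.5% of the values are whole within 1e-06. Per the submitters' processing notes, minimap2 and Salmon were used (no versions). Which build and annotation they were run on is not stated in any source used. The table holds 46968 transcripts of 14983 genes, of which 11685 carry a symbol, and 9933 of those symbols are in the RefSeq quail table (Coturnix japonica 2.1), while 0 transcript accessions are.

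Transcript counts were rounded and summed per gene. A read can be counted on several transcripts of a gene: over the tested genes the sum was 2.74 times the largest transcript's count at the median. The largest transcript's count, taken in each library apart and summed over the group, is therefore given as a lower limit of read support. A floor of 3 counts over the group stands for a group at 0. Library totals ran from 72125 to 867217 counts.

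The 12 liver libraries entered 1 edgeR quasi-likelihood fit (robust, TMM factors, a mean per photoperiod, 9 residual degrees of freedom) after filterByExpr with a minimum count of 10 and a minimum total of 15. Benjamini-Hochberg adjustment covered every tested gene, and an adjusted p under 0.05 counted as a call. The SE of a log2 difference was its size over the square root of F. The step contrast was 16v minus 2 times 12v plus 8L. The tissue difference came from an edgeR fit of all 24 libraries. Intervals (95%) and agreement (a pair of one-sided tests, margin 2-fold) came from limma-voom. Principal components used log2 CPM with a prior count of 2. DESeq2, other scalings, filters and margins, 1 transcript per gene and left-out libraries were alternatives. The fits were tested on simulated counts.

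Genes named are the 10 higher and 10 lower with the smallest p, those called against 8L (up to 10 per contrast), up to 3 per gene list by p, and up to 5 for the step and tissue tests; some of these are not reported here. The 12 most abundant genes past the 2-fold agreement test were to be named, but none passed, so the agreeing genes in the text were picked after their values were seen. The comparison and its gene lists were chosen with earlier results of these data known. No sequences are shown. Software was R 4.3.3, edgeR 4.0.16, limma 3.58.1, DESeq2 1.42.0, Python 3.11.15 and matplotlib 3.10.9.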

Additional observations from a re-analysis of the deposited data

Results flagged for a closer look

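Of 164 groups of 4 libraries examined, 18 (11%) held a library whose gap to the nearest other was a larger share of the group's range than Dixon's 95% critical value. Normal values exceed it in about 1 in 20 groups. These are CPM values, some with a single library above 0, mostly of genes named from the same libraries. The 11% therefore cannot be set against that rate, and the rule only picks out values to look at. In 12v replicate 4, 6 genes and the near-identical loci stood apart: SERPING1 at 147 CPM, RAMP2 at 33.2, OGDH at 42, VTN at 3585, DIO2 at 28 and PPARD at 1.75 CPM, with those loci at 14.1% of its counts. In 16v replicate 3 the library stood apart for SAA at 1131.5 CPM, ORM1 at 1598, MBL2 at 182, and at the level of a single count for ABCD4 and RAMP2, at 1.35 CPM each. In 12v replicate 3 DTD2 was at 0, and this was the shallowest library. In 12v replicate 2, ME1 stood at 553 CPM, and BIN1 and SLC25A51 at 1.5 CPM each, which is a single count there. PLIN2 was at 181 CPM in 16v replicate 2 and RPS14 at 4828 CPM in 16v replicate 4. The step from 12v to 16v differed from the step from 8L to 12v for BIN1, by 14.75 on the log2 scale in edgeR, from few reads. Whether depth or the make-up of a library plays a part in these values was not tested.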

How the results depend on the processing

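Of 72 genes named by rule 65 kept the direction of their difference between 16v and 12v under every alternative that tested them, and 7 turned in 11 of 1708 values. Not every gene was tested in each, with 25 alternatives for APOB and 19 for SLC25A51. Most were named for a small p in this contrast and the alternatives reuse its libraries, so a kept sign was likely beforehand. No share over all tested genes was taken. The 7 abundant genes picked as near equal, at -0.20 to 0.11 with all libraries, each turned under some alternative, in 30 of 175 values that lay between -0.45 and 0.45. SCUBE1 was -0.046 with library size alone and -0.22 to 0.81 with 1 library left out. With 1 library, or 12v replicates 1 and 3 and 16v replicate 1, left out, CCDC152 ranged from -0.47 to 0.012, LDHA from -0.042 to 0.57, RAMP2 from -5.41 to 1.34, PEMT from -1.01 to 0.025, SAA from -0.89 to 3.86 and SERPING1 from -8.53 to 5.1e-15, which is 0 but for rounding.

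The 1 gene called between 16v and 12v became 0 with the 8 libraries alone, with 1 transcript per gene, without 12v replicates 1 and 3 and 16v replicate 1, and with limma-voom, 3 with DESeq2, and 0 to 1 with 1 library left out. An alternative chosen after seeing the data, summed counts of genes whose largest transcript passes the filter, gave 0. Between 12v and 8L the 15 calls became 67 with library size alone, 43 with no count filter, 86 at a mean of at least 20 counts, 141 with 1 transcript per gene, 136 where the largest transcript passes, 3 with the ribosomal component as covariate, 1 without those 3 libraries, 365 with DESeq2, and 0 to 292 with 1 library left out. Between 16v and 8L the 36 calls became 88 with library size alone, 129 at a mean of at least 20 counts, 478 with 1 transcript per gene, 387 where the largest transcript passes, 2 with the ribosomal component, 125 without those 3 libraries, 211 with limma-voom, 546 with DESeq2, and 0 to 210 with 1 library left out. The step call became 0 with 1 transcript per gene, with the largest transcript's filter, without those 3 libraries and with limma-voom, 14 with DESeq2, and 0 to 23 with 1 library left out. The tissue difference gave 0 to 2 with 1 library left out, 2 without 12v replicate 4, and 0 with the bird number as a block, where CADM1 had an edgeR adjusted p of 1.

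Agreement within 2-fold (0 genes) was 1787 genes at a 3-fold margin. Agreement within 3-fold became 0 with no count filter and 561 to 1703 with 1 library left out. The 464 genes with an interval within 2-fold became 259 with no filter, 857 with the ribosomal component, 256 without those 3 libraries, and 201 to 451 with 1 library left out. The cause was not tested in any of these.

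The replicate numbers did not pair the samples: same-numbered libraries at 16v and 12v correlated at 0.21, 0.10, -0.17 and 0.21. Only 16v replicate 4 was closest to its own number at 12v. With the replicate block, 0 genes were called between 16v and 12v (BIN1 adjusted p 0.213 in edgeR), 26 between 12v and 8L, 65 between 16v and 8L and 0 for the step. Depth limits rare genes most: a 12v group with 0 counts allows 3, and 12v replicate 3 held 72125 counts in all.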
